A study of Mus musculus with 4 samples.

Results

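Collagen genes were taken by name from the deposited expression table: every protein-coding row whose symbol reads Col, a type number, the letter a and a chain number. The rule found 41 genes among the 19991 of that table, and the count table of the study holds 57186 genes. By textbook family they are 10 fibrillar, 6 basement membrane, 7 FACIT and 18 other collagens. RNA was sequenced from whole mouse uterus on gestational day 4, with 2 control and 2 knockout samples. Control mice were wild type. Knockout mice were Prss29Cre/Cre;Pgrf/f, called Pgr gecKO: they carried Cre at both copies of Prss29, a protease gene of the uterine gland epithelium, and floxed copies of Pgr, the progesterone receptor gene. The knockouts therefore also carry Cre itself and had 0 counts of Prss29, and these differences cannot be told apart from that of Pgr. No source used here gives the strain, the age or whether the samples were separate animals. The p-values therefore reflect only how far these 4 samples spread, and that spread may be technical.

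Collagens are the main structural proteins of the extracellular matrix. Each molecule is a trimer of chains wound into a triple helix, and a helix forms only where glycine recurs at a fixed short interval along the chain. Fibrillar collagens such as types I and III build the tensile fibres of the uterine stroma and muscle wall, FACIT collagens decorate those fibres, type IV forms the sheet that underlies epithelium, endothelium and muscle cells, and the remaining types make beaded filaments, short networks, anchoring fibrils or membrane-bound chains. In the pregnant mouse uterus the stromal fibres are remodelled as the tissue prepares for implantation.

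The sequences below show the feature that makes these genes a family, as it is written in DNA. Since every glycine codon begins with GG, a triple-helical stretch appears as a 9-base repeat whose first 2 bases are GG. Capitals mark the GG at the start of each repeat. Col1a1 is shown from the start of its longest unbroken run (bases 502 to 573 of the coding sequence), Col4a1 (bases 451 to 522) and Col14a1 (bases 4801 to 4872) at the end of theirs, where the repeat stops.
Col1a1: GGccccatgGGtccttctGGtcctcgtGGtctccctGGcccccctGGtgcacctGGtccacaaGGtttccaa
Col4a1: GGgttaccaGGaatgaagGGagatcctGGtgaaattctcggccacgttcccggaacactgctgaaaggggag
Col14a1: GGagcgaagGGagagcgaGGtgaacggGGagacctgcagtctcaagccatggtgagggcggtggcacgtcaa
In the longest coding sequence of each gene in GENCODE M21 (GRCm38), all 41 members held such runs. The longest run was 338 repeats in Col1a1, 40 in Col4a1 and 32 in Col14a1. Among the 10 fibrillar genes it ran from 216 to 344 repeats, with only 2 or 3 runs of at least 5 repeats per gene. The 6 basement membrane genes had longest runs of 39 to 66 repeats, broken into 22 to 27 runs. FACIT genes had longest runs of 32 to 113 repeats, and the other classes of 23 to 87.

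No collagen gene was called different between knockout and control uterus after adjustment for all genes tested. Of the 41 members, 40 passed the filter on low counts and 0 were called by edgeR's quasi-likelihood test at an adjusted p of 0.05 over all 20950 genes tested, where 0.00477% of genes (1 gene, Gbp2b) were called. DESeq2 called 0 of 41 members and 0.392% of its genes, and limma-voom called 0 of 40 members and 0% of genes. Prss29, at 0 counts in both knockouts, was not called in the edgeR test either (edgeR adjusted p = 0.386). A gene that was not called may therefore still differ. At an unadjusted p under 0.05 there was 1 member in edgeR, Col20a1, against 3.01% of all genes, 3 in DESeq2 (Col8a1, Col10a1 and Col20a1) against 2.14% of the 34279 genes with a p there, and 1 in limma-voom (Col20a1) against 2.87%. The median log2 fold change of the 40 members, knockout over control, was −0.16, beside 0.0063 over all genes tested. It was below 0 in 25 of the 40, against 48.9% of all genes, and without control replicate 1 the median was 0.092.

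For many members the 2 controls lay further apart than the groups did, as for most genes tested. CPM is used below for counts scaled to library size with TMM factors, the scale on which libraries were compared. Control 1 was the highest of the 4 libraries for 16 of 40 members, against 21.8% of all genes. It stood at least 2-fold above control 2 for 9 members (Col1a1, Col1a2, Col3a1, Col5a1, Col6a2, Col6a3, Col12a1, Col14a1 and Col8a2), against 5.16% of all genes, and at least 2-fold below it for 5 (Col24a1, Col9a2, Col9a3, Col6a6 and Col8a1), against 8.21%. Knockout 2 was the lowest library for 18 of 40 members, against 31.6% of all genes. Knockout 1 exceeded knockout 2 at least 2-fold for 7 members (Col7a1, Col24a1, Col11a1, Col6a6, Col22a1, Col4a4 and Col4a3), against 10.2%, and the reverse held for 3 (Col12a1, Col8a2 and Col8a1), against 6.42%. In 29 of the 40 the gap between the 2 controls, on the log2 scale, was larger than the fitted difference between the groups, as it was for 65.7% of all genes. A gap between 2 single libraries varies more than a difference between means of 2, so this count is no trait of collagens.

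**Figure D1:**
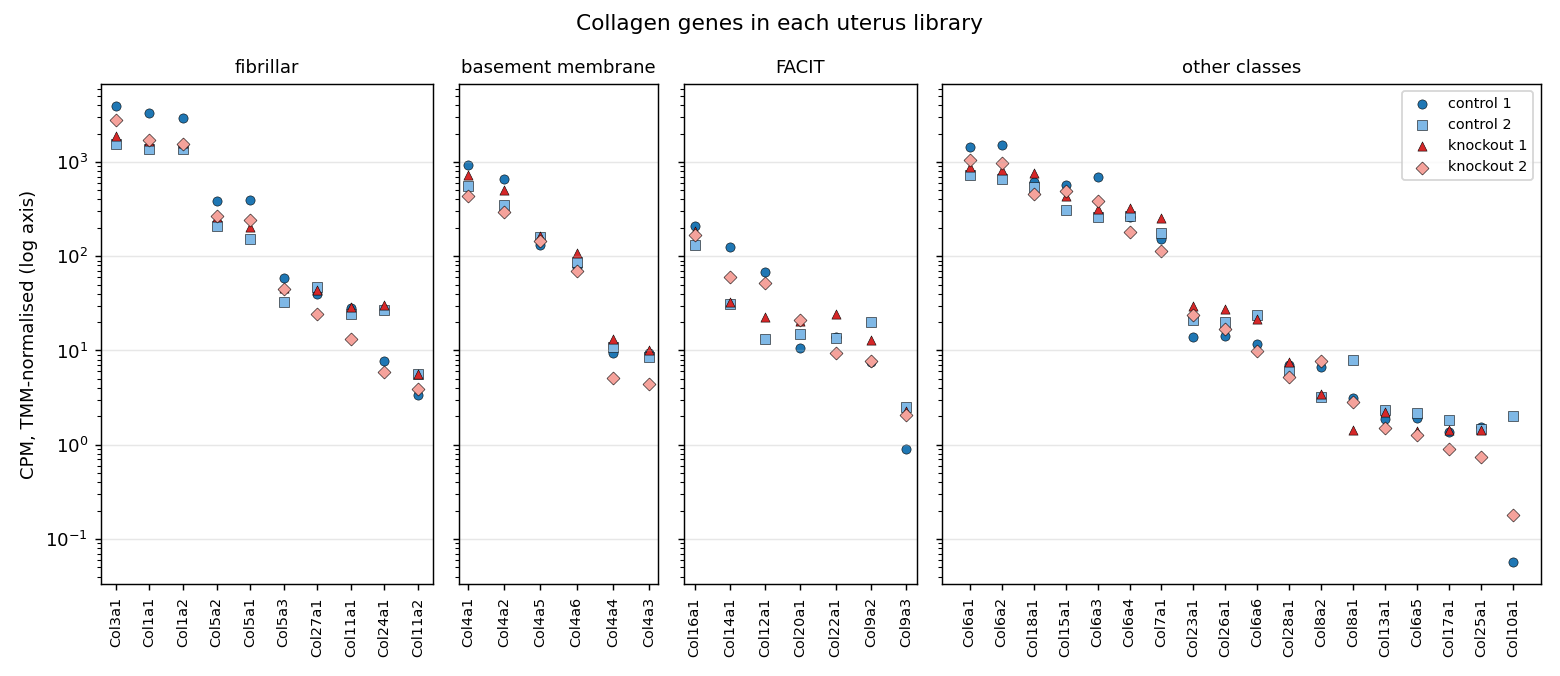
Normalised level of each of the 41 collagen genes (CPM, log axis) in the 4 libraries, by class, with 1 point per library and genes ordered by mean level. Control 1 stands above the other libraries for Col1a1, Col1a2, Col3a1, Col5a1, Col6a3 and Col14a1, and Col10a1 is drawn for 3 libraries because knockout 1 had 0 counts.

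Total counts ran from 29932153 to 35149834 per library, and a floor of 3 counts equals 0.0855 to 0.107 CPM. That floor covers counting error only. Pgr stood at 140.5 and 138.6 CPM in controls 1 and 2 and 130.1 and 146.2 CPM in knockouts 1 and 2, so its level in whole uterus did not separate the groups. Prss29, the Cre locus, had 1524 and 190 control counts and was at 0 in both knockouts. Every listed marker of smooth muscle, stroma, endothelium and epithelium had at least 3 counts in every library.

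Levels between genes were compared in TPM, which divides counts by gene length. Collagens took 0.751% of all TPM in control 1, 0.380% in control 2, 0.488% in knockout 1 and 0.427% in knockout 2. Col1a1, Col3a1, Col6a1, Col1a2 and Col6a2 together made up 70.0% and 61.0% of collagen TPM in controls against 58.8% and 68.9% in knockouts. Col1a1 ranked 54th of all genes in control 1 and between 130th and 153rd in the other libraries. At a mean of at least 100 TPM lay 10 members, 12 between 10 and 100, 15 between 1 and 10, and 4 (Col17a1, Col10a1, Col6a5 and Col25a1) under 1 TPM. Listed family members left out of the deposited TPM table were Col2a1, the cartilage fibril gene, with 1 and 4 control counts against 1 and 3 knockout counts, Col9a1 with 1 and 5 against 12 and 8, and Col19a1 with 0 and 3 against 1 and 0.

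The share of each class was steadier than the total. Fibrillar genes gave 52.6% and 44.7% of collagen TPM in controls 1 and 2, against 43.1% and 49.3% for knockouts 1 and 2. Basement membrane genes gave 10.9% and 13.8% against 14.5% and 9.001%, and FACIT genes 2.54% and 3.08% against 3.04% and 3.02%. Type VI alone, counted among the other classes, gave 25.4% and 25.6% against 24.8% and 27.7%. The other classes as a whole gave 33.9% and 38.5% against 39.3% and 38.7%. In these last the knockouts lay above both controls, by less than the gap between the controls, and in the fibrillar, basement membrane, FACIT and type VI shares the groups overlapped.

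**Figure D2:**
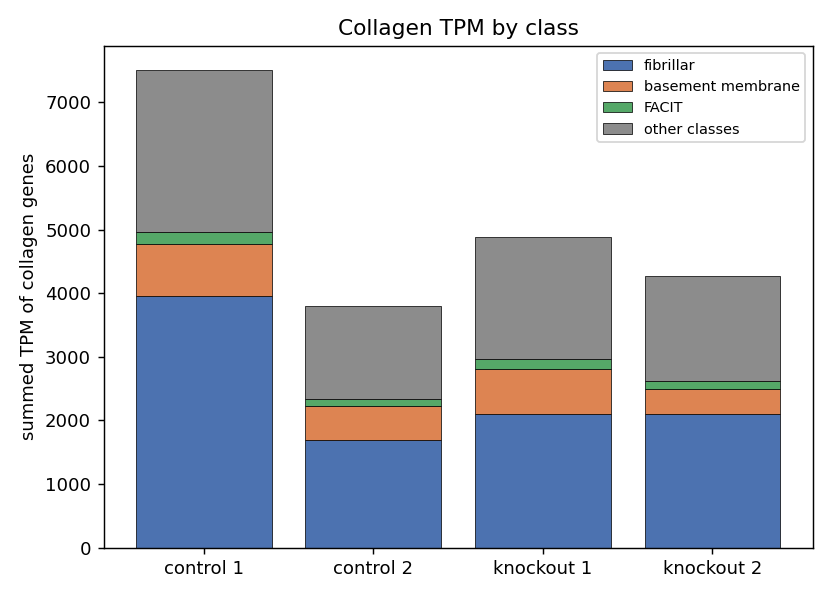
Summed TPM of the 41 collagen genes in each library, stacked by class from 0. The total is 7510 TPM in control 1 and 3801 in control 2, with the knockouts at 4882 and 4270 TPM between them.

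Among fibrillar genes, types I and III carried 89.4% to 91.8% of the class TPM. Col1a1, the main chain of type I collagen, stood at 3306 and 1370.5 CPM in controls 1 and 2 and at 1654 and 1731 CPM in knockouts 1 and 2. Control 1 was the outlying library and the knockouts lay between the controls. Its group means were 2338 ± 1368 and 1692 ± 54.3 CPM (SD, n = 2 each), with a log2 fold change of −0.47 (SE 0.47, 95% interval −1.59 to 0.66, edgeR adjusted p = 1.0). Without control replicate 1 the value was 0.32, and without control replicate 2 it was −0.97.

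Col1a2, the partner chain of Col1a1, had 2908 and 1362 CPM in the controls and 1573 and 1539 CPM in the knockouts (log2 fold change −0.46, SE 0.44). Col3a1, which forms the finer fibres of distensible tissue, had 3888 and 1541 CPM in the controls and 1872 and 2755 CPM in the knockouts (log2 fold change −0.23, SE 0.52). Knockout 2 was thus the second highest library for Col3a1 but level with knockout 1 for Col1a2. Without control replicate 1 these became 0.21 for Col1a2 and 0.60 for Col3a1.

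Type V chains start and thin the type I fibre. Col5a1 had 395.3 and 150.9 CPM in the controls and 202.1 and 240.8 CPM in the knockouts, and Col5a2 had 380.9 and 207.6 against 259.5 and 267.5 CPM. Col5a3 had 58.5 and 32.4 against 46.2 and 45.2 CPM. Its controls lay 1.81-fold apart, near the 1.84-fold of Col5a2 and below the 2.62-fold of Col5a1. All 3 had control 1 highest, control 2 lowest and both knockouts between them.

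The minor fibrillar genes did not share that order. Col24a1 had 7.74 and 26.8 CPM in the controls and 30.1 and 5.95 CPM in the knockouts, so control 2 and knockout 1 were high and the others low. Col11a1, a type XI chain, had 28.1 and 24.2 against 28.7 and 13.1 CPM, and Col11a2 had 3.37 and 5.70 against 5.62 and 3.89 CPM. Col27a1 had 40.2 and 47.3 CPM in the controls and 43.6 and 24.3 CPM in the knockouts (log2 fold change −0.36, SE 0.31). Over the 10 fibrillar genes the median log2 fold change was −0.27, with 7 below 0 and 3 above, and it was 0.26 without control replicate 1.

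The promoters of 2 of these genes are shown because their RNAs were both highest in control 1 and lowest in control 2. Each runs from 250 bases before to 50 bases after the RefSeq start, 5′ to 3′ on the gene's plus strand in GRCm38.p6, at chr6:4505368-4505667 for Col1a2 and chr1:45311288-45311587 for Col3a1. Capitals mark matches on either strand to CCAAT, the CCAAT box, to TATAAA, the TATA box, and to GGGCGG, the GC box; no match overlapped another kind.
Col1a2: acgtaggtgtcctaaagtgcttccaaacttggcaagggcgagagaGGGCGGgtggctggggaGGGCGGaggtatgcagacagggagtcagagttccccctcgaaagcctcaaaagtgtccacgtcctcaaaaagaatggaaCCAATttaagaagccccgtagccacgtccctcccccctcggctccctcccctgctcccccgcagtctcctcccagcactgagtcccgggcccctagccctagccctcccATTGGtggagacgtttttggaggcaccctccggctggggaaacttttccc
Col3a1: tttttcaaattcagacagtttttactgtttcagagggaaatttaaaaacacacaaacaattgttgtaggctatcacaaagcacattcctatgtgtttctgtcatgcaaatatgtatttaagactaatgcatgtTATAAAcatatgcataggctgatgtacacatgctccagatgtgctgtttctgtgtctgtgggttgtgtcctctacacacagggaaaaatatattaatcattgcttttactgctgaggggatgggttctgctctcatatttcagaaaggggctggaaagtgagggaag
The Col1a2 window held 2 CCAAT and 2 GGGCGG matches and no TATAAA, and the Col3a1 window 1 TATAAA and neither of the others. Promoter windows were found for 33 of the 41 members, 35 windows in all. CCAAT was in 12 of the 35 windows, against 37.4% of all 32851 windows of the table, TATAAA in 5 against 13.6%, and GGGCGG in 23 against 35.7%. A match describes the letters of the window only.

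Basement membrane genes fell into a common and a scarce set. Col4a1 and Col4a2, the chains of the type IV network found in most basement membranes, made up 76.6% to 87.9% of the class TPM. Col4a1 had 935.3 and 553.6 CPM in controls 1 and 2 and 732.2 and 438.1 CPM in knockouts 1 and 2. Both groups spread widely and overlapped, with knockout 2 lowest (744.5 ± 269.9 against 585.1 ± 208.0 CPM, SD, n = 2 each; log2 fold change −0.35, SE 0.39). Col4a2 had 657.1 and 349.4 against 500.9 and 291.6 CPM, with the libraries in the same order (log2 fold change −0.34, SE 0.41). Without control replicate 1 the values were 0.092 and 0.19.

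Col4a5 and Col4a6, chains of a network found in smooth muscle and some epithelia, were steadier. Col4a5 had 130.9 and 160.1 CPM in the controls and 162.8 and 146.5 CPM in the knockouts (log2 fold change 0.088, 95% interval −0.46 to 0.63). Col4a6 had 76.1 and 87.1 against 108.5 and 69.5 CPM. Col4a3 and Col4a4, best known from kidney and lung, were scarce: Col4a3 had 9.41 and 8.43 against 10.2 and 4.42 CPM, and Col4a4 had 9.41 and 10.9 against 13.3 and 5.17 CPM. In both genes knockout 2 stood apart below the other libraries. The class median was −0.21, with 4 of 6 genes below 0. Without knockout replicate 1 it was −0.78 and without knockout replicate 2 it was 0.18.

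Col4a1 and Col4a2 are neighbours transcribed away from each other, and their promoter windows overlap. In GRCm38.p6 the Col4a2 window lies on the plus strand at chr8:11312555-11312854 and the Col4a1 window on the minus strand at chr8:11312777-11313076, sharing 78 bases. Each is printed 5′ to 3′ on the strand of its own gene, with capitals as above.
Col4a1: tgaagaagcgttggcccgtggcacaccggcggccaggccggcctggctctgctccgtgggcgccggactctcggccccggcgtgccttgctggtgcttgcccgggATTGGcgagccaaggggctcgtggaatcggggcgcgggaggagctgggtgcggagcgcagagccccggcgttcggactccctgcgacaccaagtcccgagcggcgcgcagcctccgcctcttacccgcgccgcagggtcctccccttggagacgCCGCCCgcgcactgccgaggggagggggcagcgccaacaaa
Col4a2: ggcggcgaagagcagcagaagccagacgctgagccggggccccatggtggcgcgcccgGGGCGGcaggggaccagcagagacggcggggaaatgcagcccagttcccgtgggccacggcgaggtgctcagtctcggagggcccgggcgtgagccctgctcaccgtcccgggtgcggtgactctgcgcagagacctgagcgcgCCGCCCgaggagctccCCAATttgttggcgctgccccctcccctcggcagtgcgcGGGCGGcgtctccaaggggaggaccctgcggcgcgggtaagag
The shared 78 bases held 1 GGGCGG match. Other members that are next to each other among protein-coding genes of the RefSeq table were Col3a1 with Col5a2, Col4a3 with Col4a4, Col4a5 with Col4a6, Col6a1 with Col6a2, and Col6a4, Col6a5 and Col6a6 in a row.

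FACIT genes went in different directions. Col16a1, the most abundant at a mean of 81.0 TPM, had 209.6 and 132.8 CPM in the controls and 184.7 and 167.4 CPM in the knockouts (log2 fold change 0.040, 95% interval −0.63 to 0.71). Col14a1, which binds fibre surfaces, had 124.0 and 30.9 CPM in the controls and 32.6 and 60.8 CPM in the knockouts (log2 fold change −0.73, SE 0.61). Control 1 stood alone, and without it the value was 0.61. Col12a1, a similar fibre-binding chain, had 68.6 and 13.3 against 22.6 and 51.5 CPM, the widest gap between controls of any tested member at 5.14-fold.

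Col20a1 was the only tested member with an unadjusted p under 0.05 in the main edgeR test. It had 10.6 and 14.96 CPM in the controls and 20.3 and 21.1 CPM in the knockouts, and the groups did not overlap. The means were 12.8 ± 3.11 and 20.7 ± 0.557 CPM (SD, n = 2 each), with a log2 fold change of 0.70 (SE 0.29, 95% interval 0.016 to 1.38, edgeR adjusted p = 1.0). With any 1 library left out the fold change ran from 0.48 to 0.97. Groups that do not overlap leave little room for its sign to change in such runs. With upper-quartile factors, a stricter low-count filter, a replicate block or limma on log2(TPM), the unadjusted p of Col20a1 no longer passed 0.05. The other FACIT genes overlapped between groups: Col9a2 had 7.54 and 20.1 against 12.9 and 7.81 CPM, Col9a3 had 0.892 and 2.54 against 2.27 and 2.07 CPM, and Col22a1 had 13.9 and 13.5 against 24.4 and 9.30 CPM. The class median was 0.040, but leaving out control replicate 1 gave 0.42 and leaving out control replicate 2 gave 0.28.

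Type VI collagen forms beaded filaments around cells. Col6a1 had 1427 and 733.6 CPM in the controls and 878.9 and 1059 CPM in the knockouts (log2 fold change −0.16, SE 0.40). Col6a2 had 1515 and 662.2 against 824.1 and 970.8 CPM (log2 fold change −0.28, SE 0.44), and Col6a3 had 685.6 and 259.3 against 317.0 and 385.4 CPM (log2 fold change −0.43, SE 0.46). In all 3 the order was control 1, knockout 2, knockout 1, control 2. Without control replicate 1 the values were 0.42, 0.45 and 0.45.

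The chains that can replace Col6a3 in type VI had other orders. Col6a4 had 258.5 and 270.0 CPM in the controls and 321.2 and 181.5 CPM in the knockouts, and Col6a6 had 11.7 and 23.7 against 21.7 and 9.94 CPM. Col6a5 had 1.93 and 2.19 CPM in the controls and 1.39 and 1.28 CPM in the knockouts, from 36 to 77 counts. Its groups did not overlap, and the log2 fold change was −0.62 (SE 0.45, edgeR adjusted p = 1.0).

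Multiplexins and the anchoring fibril chain sit at the border between basement membrane and stroma. Col18a1, the source of endostatin, had 609.2 and 536.4 CPM in the controls and 767.1 and 462.1 CPM in the knockouts (log2 fold change 0.10, 95% interval −0.69 to 0.90). Col15a1 had 568.4 and 308.6 against 440.5 and 487.0 CPM. Col7a1, which anchors epithelial basement membrane to the stroma, had 153.5 and 175.1 against 252.2 and 114.1 CPM (log2 fold change 0.16, SE 0.38). Col7a1 thus differed 2.21-fold between the 2 knockouts and 1.14-fold between the controls.

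Short-chain network genes were scarce. Col8a1, known from endothelium and vessel walls, had 109 and 278 control counts and 47 and 80 knockout counts, or 3.14 and 7.92 against 1.42 and 2.85 CPM. Both knockouts lay below both controls, with a log2 fold change of −1.37 (SE 0.59, 95% interval −2.78 to 0.030, edgeR adjusted p = 1.0), the largest difference of any tested member. It was −1.95 without knockout replicate 2 and −0.56 without control replicate 2. Its partner Col8a2 had 6.62 and 3.25 against 3.45 and 7.81 CPM. Col10a1, the collagen of hypertrophic cartilage, had 2 and 71 control counts and 0 and 5 knockout counts. The low-count filter left it out of the main edgeR test, and control 2 alone held most of its counts. With no low-count filter its unadjusted edgeR p was under 0.05, but it was not called.

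Transmembrane collagens hold their collagen stretches at the cell surface. Col23a1 had 14.0 and 21.0 CPM in the controls and 29.4 and 23.9 CPM in the knockouts, and the groups did not overlap (log2 fold change 0.61, SE 0.29, 95% interval −0.096 to 1.31, edgeR adjusted p = 1.0). Without control replicate 1 it was 0.36. Col17a1 of hemidesmosomes had 48 and 65 control counts against 47 and 25, Col13a1 had 65 and 82 against 74 and 42, and Col25a1 had 54 and 51 against 47 and 21. Col26a1 and Col28a1 were classed apart from the transmembrane genes. Col26a1 had 14.3 and 20.1 against 27.4 and 17.0 CPM (log2 fold change 0.36, SE 0.33), and Col28a1 had 7.08 and 6.01 against 7.47 and 5.204 CPM.

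In all, both knockouts lay above both controls for 2 of 40 members (Col20a1 and Col23a1), against 12.2% of all genes, and below both for 3 (Col8a1, Col6a5 and Col25a1), against 13.1%. The members' shares were below these backgrounds. The 95% interval lay within 1 log2 unit of 0 for 9 members: Col18a1, Col15a1, Col6a4, Col5a2, Col16a1, Col4a5, Col4a6, Col5a3 and Col28a1. For the other 31 tested members the interval reached beyond a 2-fold change in at least 1 direction.

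**Figure D3:**
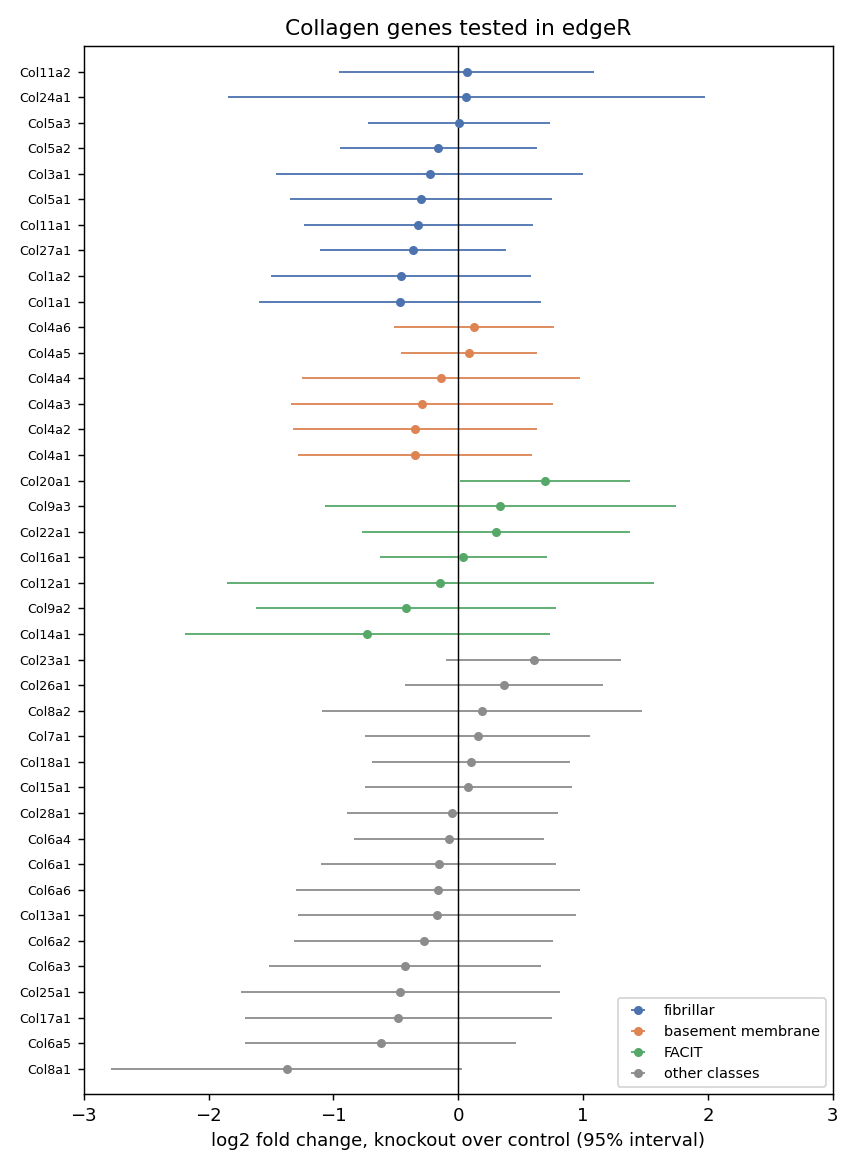
Log2 fold change, knockout over control, of the 40 tested collagen genes with 95% intervals from edgeR, coloured by class. The interval includes 0 for every gene except Col20a1 (0.016 to 1.38), and it is widest for Col24a1.

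Pairs of chains, all of which can share a trimer except Col3a1 with Col1a1, differed in how closely they moved together. The ratio spanned under 1.2-fold over the 4 libraries for 3 of the 11 pairs compared. The TPM ratio of Col1a1 to Col1a2 was 2.15 and 1.90 in controls against 1.99 and 2.13 in knockouts, a span of 1.13-fold, while Col1a1 itself spanned 2.41-fold. Col4a1 to Col4a2 was 1.26 and 1.41 against 1.30 and 1.33, a span of 1.11-fold while Col4a1 spanned 2.39-fold. Col6a1 to Col6a2 was 1.79 and 2.11 against 2.03 and 2.07, a span of 1.18-fold. The absolute ratio depends on the deposited gene lengths: Col1a2 is listed at 12426 bases and Col1a1 at 6563, although their longest coding sequences are 4116 and 4359 bases. The ratios between libraries do not depend on length.

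The ratio spanned more for the other 8 pairs. Col4a3 to Col4a4 spanned 1.31-fold, Col4a5 to Col4a6 1.41-fold and Col5a1 to Col5a2 1.43-fold. Between Col4a5 and Col4a6 the ratio thus spanned more than the level of Col4a5, which spanned 1.28-fold. Col11a1 to Col11a2 was 4.49 and 2.29 against 2.75 and 1.82, a span of 2.47-fold. Col3a1 to Col1a1 was 0.786 and 0.752 against 0.757 and 1.06, so knockout 2 alone held more Col3a1 than Col1a1 TPM. Col6a3 to Col6a1 was 0.176 in control 1 and 0.129 to 0.133 in the others. Col8a1 to Col8a2 was 0.272 and 1.40 against 0.236 and 0.209, with control 2 apart and both knockouts below both controls. Col9a2 to Col9a3 was 10.5 and 9.89 against 7.09 and 4.70, also without overlap of the groups, on 31 to 89 counts of Col9a3. For all other pairs the groups overlapped. The ratios were not tested, and with 2 libraries per group such separation is common without any true difference.

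**Figure D4:**
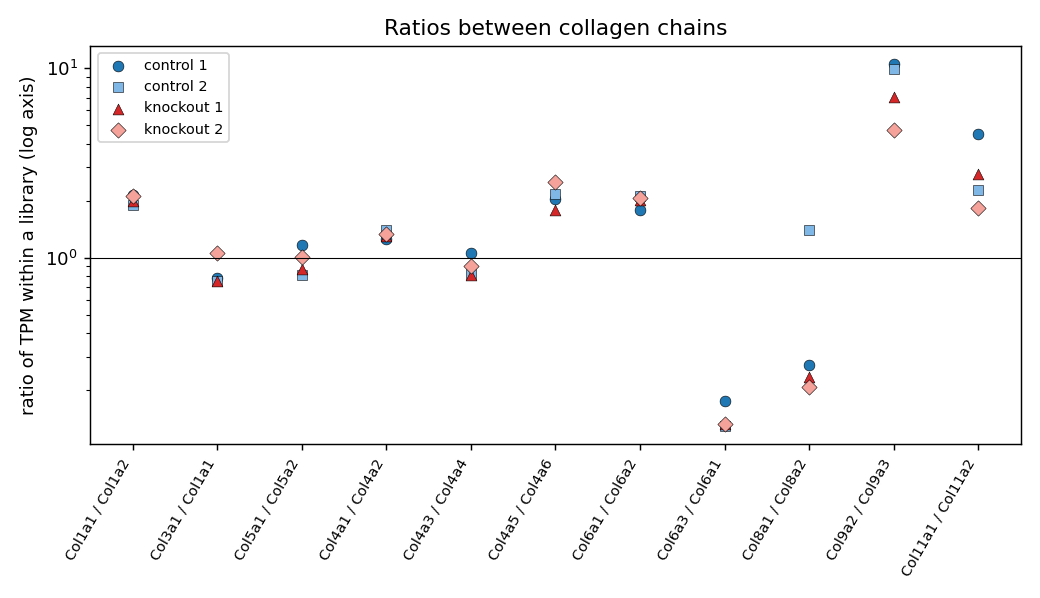
TPM ratio between pairs of collagen chains within each library (log axis), 1 point per library. The points lie close together for Col1a1 over Col1a2 (1.90 to 2.15) and Col4a1 over Col4a2 (1.26 to 1.41), and widely apart for Col8a1 over Col8a2 (0.209 to 1.40).

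Genes that make, cut and bind collagen were also not called, 0 of 78 tested, against 0.00477% of all genes. With so few genes called at all, this is no trait of these lists. Of 22 tested genes of collagen folding and modification 0 were called in either direction (median log2 fold change −0.10, 8 above 0 and 14 below). Serpinh1, the collagen chaperone HSP47, had 1218 and 596.3 CPM in the controls and 718.7 and 1037 CPM in the knockouts, and the prolyl hydroxylase subunit P4hb had 736.1 and 502.2 against 475.2 and 827.8 CPM. The smallest p in this list belonged to Mia3, which helps load procollagen for export (log2 fold change −0.31, SE 0.24). Next was P3h2, a prolyl 3-hydroxylase (−0.30, SE 0.26). In each, both knockouts lay below both controls, as for 3 of the 22 genes, near the 13.1% of all genes.

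Of 13 tested genes of procollagen processing and cross-linking 0 were called (median −0.028). Bmp1, the procollagen C-proteinase, had 201.8 and 216.8 CPM in the controls and 242.6 and 225.8 CPM in the knockouts. Its enhancer gene Pcolce had 132.3 and 42.2 against 49.2 and 63.1 CPM, with control 1 alone high as for Col1a1. Loxl4, a lysyl oxidase, had 1.35 and 2.56 against 0.484 and 0.962 CPM (log2 fold change −1.44, SE 0.61, edgeR adjusted p = 1.0).

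Of 16 fibril-associated matrix genes 0 were called (median −0.14). Sparc, a collagen-binding glycoprotein, had 2212 and 1271 CPM in the controls and 1401 and 1477 CPM in the knockouts, and the fibril proteoglycan gene Dcn had 866.1 and 664.3 against 536.9 and 800.2 CPM. For Thbs2 the log2 fold change was −0.64 (SE 0.36), and for Tnxb it was 0.51 (SE 0.34). Of 14 basement membrane partners 0 were called (median 0.012). Nid1, which links laminin to type IV collagen, had 656.2 and 528.5 against 687.6 and 510.6 CPM, and the laminin gene Lamc1 had 650.8 and 283.4 against 326.7 and 362.5 CPM. Frem1 and Frem2 had log2 fold changes of −0.71 (SE 0.41) and −0.53 (SE 0.33).

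Of 13 tested collagen receptor and turnover genes 0 were called (median −0.070). Itgb1, the shared beta subunit of collagen-binding integrins, had 707.5 and 427.4 CPM in the controls and 482.0 and 656.1 CPM in the knockouts, and the gelatinase gene Mmp2 had 440.2 and 280.3 against 306.3 and 332.2 CPM. Itga2, an epithelial collagen receptor chain, had 8.29 and 14.3 against 6.86 and 7.13 CPM (log2 fold change −0.69, SE 0.36), and Lair1, an inhibitory collagen receptor of immune cells, had a log2 fold change of −0.55 (SE 0.36).

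Marker genes of uterine cell types also differed between libraries, and in bulk tissue fewer cells of a type and less RNA per cell cannot be told apart. The 12 smooth muscle markers summed to 10591 and 3593 TPM in controls 1 and 2 and 8986 and 12254 TPM in knockouts 1 and 2. Control 2 was the lowest library for them and for the fibrillar sum (1698 TPM), but the highest differed, being knockout 2 for muscle and control 1 for fibrillar collagen (3953 TPM). The sum of the 12 stroma and fibroblast markers ranged from 2573 to 3196 TPM, but single markers moved in opposite directions. From knockout 1 to knockout 2, Dpt went from 602.7 to 1108 TPM and Thy1 from 216.3 to 102.6 TPM. The 10 endothelial markers summed to 680.4 and 755.2 against 875.4 and 545.6 TPM, and knockout 2 was lowest for these and for basement membrane collagens (384.3 TPM). The 8 epithelial markers summed to 2571 and 3686 against 3266 and 2837 TPM, lowest in control 1. Their part in the collagen values was not tested.

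Gland markers, 8 genes including Prss29, summed to 418.6 and 412.9 TPM in the controls and 155.2 and 150.8 TPM in the knockouts, and 8 macrophage markers to 586.0 and 504.4 against 379.6 and 322.5 TPM. In both lists 0 genes were called, and the separation of their sums was not tested. Collagen sums did not separate the groups in this way. Adipocyte markers, 5 genes, were at 1.07 and 5.47 TPM in the controls and 0.356 and 27.3 TPM in the knockouts, so knockout 2 alone stood out, and Adipoq and Cidec were at 0 in control 1 and knockout 1. Mesothelial markers (6 genes) ranged from 91.2 to 142.9 TPM, Schwann cell markers (6 genes) from 10.7 to 27.3, pericyte markers (6 genes) from 361.6 to 497.7, and skeletal muscle markers (5 genes) from 49.4 to 262.8 TPM.

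**Figure D5:**
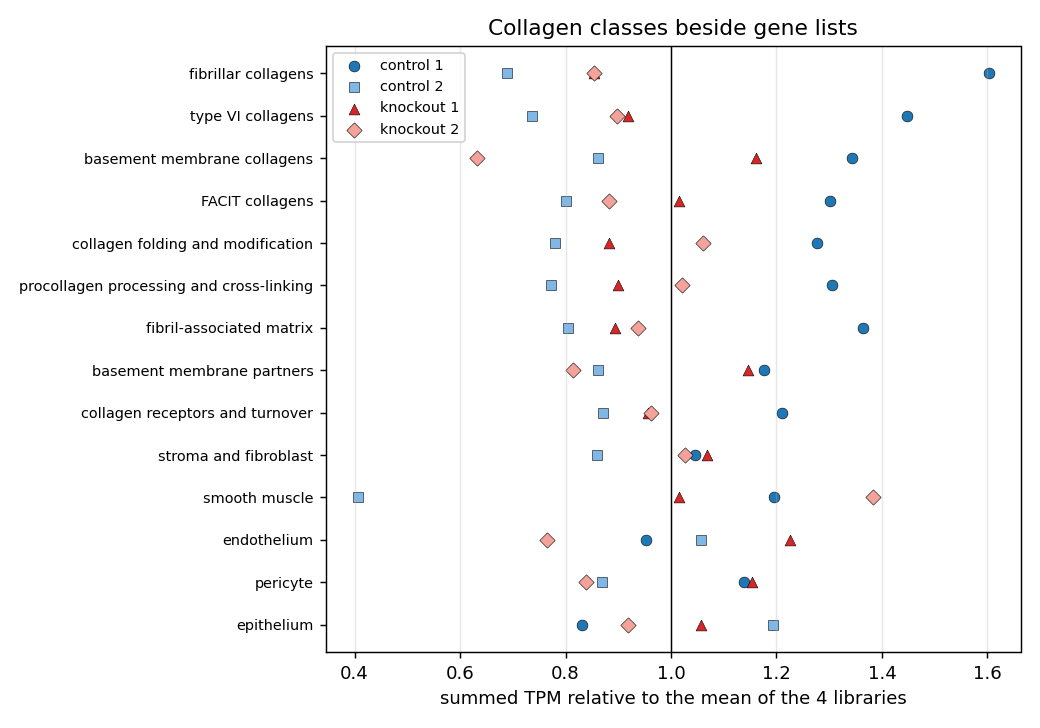
Summed TPM of collagen classes, collagen-related gene lists and 5 of the marker lists in each library, relative to the mean of the 4 libraries. Fibrillar collagens span 0.689 (control 2) to 1.60 (control 1), stroma and fibroblast markers 0.860 to 1.07, and smooth muscle markers 0.406 (control 2) to 1.38 (knockout 2).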

How the data were processed

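The authors deposited raw counts per Ensembl gene, and TPM that equal count over gene length rescaled over the 19991 genes with a total count of at least 51 (checked, largest difference 3.6e-11). The submitters' processing notes name Trimmomatic, STAR, featureCounts and GRCm39. The tool versions, annotation and strand setting were not given in the sources used here, so overlapping or antisense genes and near-identical copies are uncertain. Per the labels, column names give the sample. No 2 libraries agreed within sampling noise (lowest chi-square per degree of freedom 40.9).

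The test was edgeR 4.0.16 in R 4.3.3 (quasi-likelihood, group as the only term, TMM, filterByExpr with minimum count 10 and total 15), fitted on all genes, with Benjamini-Hochberg adjustment over 20950 genes and threshold 0.05. It was tested on simulated data. Standard errors are the fold change over the root of F. DESeq2 1.42.0, limma 3.58.1 (voom, and log2 of TPM with pseudocounts of 1 and 0.1), other factors and filters, a replicate block and leaving out each library were alternatives.

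Members, classes and lists were chosen with earlier results of these data known. Members were named with full values if they were the 3 most abundant of the fibrillar, basement membrane, FACIT or type VI genes, the most abundant of another subclass, called, among the 6 smallest p, or among the 6 largest changes without overlap at 1 TPM or more. From each list the 2 most abundant and the 2 with the smallest p were named. Other members are given by their CPM and were singled out after their values were seen, and marker lists by their sums. Symbols came from the deposited table, or from a GENCODE M21 name table for genes outside it. Promoters are from RefSeq and coding sequences from GENCODE M21, both GRCm38, so their coordinates are not those of the authors' build.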

Additional observations from a re-analysis of the deposited data

How the results depend on the processing

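Collagen members called stayed at 0 under all 15 alternatives run, and so did the genes of the 5 collagen-related lists. Over all genes the number called was 1 in the main test, 90 with DESeq2, 0 with limma-voom, 3 and 6 with limma on log2(TPM + 1) and log2(TPM + 0.1), 54 with no low-count filter, and 16 to 49 with 1 library left out. The FACIT median was 0.16 with limma-voom and 0.082 on log2(TPM + 0.1), against 0.040.

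The labels number the samples 1 and 2 in each group, but nothing says that a number pairs them, and deviations of control 1 and knockout 1 from their group means correlated at −0.444 across genes. With the replicate block 32 genes were called, 0 of them collagens, and the FACIT median was 0.14. With crossed pairs, chosen after seeing the data, 37 genes and 0 collagens were called.

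Leaving out 1 library gave median log2 fold changes from −0.35 to 0.092 for all members, −0.48 to 0.26 for fibrillar, −0.78 to 0.18 for basement membrane, −0.032 to 0.42 for FACIT and −0.41 to 0.082 for other classes. Of the 21 members with full values, 17 changed sign in at least 1 such run. The fold change ran from −0.97 to 0.32 for Col1a1, −0.90 to 0.21 for Col1a2, −0.75 to 0.60 for Col3a1, −0.85 to 0.00072 for Col27a1, −0.76 to 0.092 for Col4a1, −0.79 to 0.19 for Col4a2 and −0.036 to 0.24 for Col4a5. It ran from −1.41 to 0.61 for Col14a1, −0.25 to 0.42 for Col16a1, −0.95 to 0.46 for Col9a2, −0.56 to 0.42 for Col6a1, −0.76 to 0.45 for Col6a2 and −0.97 to 0.45 for Col6a3. For Col18a1 it ran from −0.31 to 0.42, for Col26a1 from −0.020 to 0.67, for Col7a1 from −0.53 to 0.62 and for Col8a2 from −0.52 to 0.81. With other settings 208 of 210 values kept their sign; the exception was Col7a1, at −0.0063 and −0.0092 on log2(TPM + 1) and log2(TPM + 0.1). The causes were not tested.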
